A study of Mus musculus with 9 samples.

Results

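The ERBB receptors and their adaptor Grb7 were followed across a mouse mammary epithelial line. The members were the 5 genes Egfr, Erbb2, Erbb3, Erbb4 and Grb7, taken by gene symbol from the 54281 genes of each deposited gene table, and each symbol matched 1 row. The samples were bulk RNA-seq libraries of Comma-1D, an established line grown from mouse mammary tissue that holds several epithelial cell states in culture. Cells were sorted on the surface proteins Sca-1 and EpCAM into 3 populations: B stained high for Sca-1 and low for EpCAM, L stained the other way round, and bi stained high for both. Each population was sequenced as a control, after transduction with an activated MYC oncogene, and after transduction with an activated Her2 oncogene, which gave 9 libraries, 1 for each population and arm. All 9 groups shared the culture medium, with EGF at 5 ng/mL, insulin at 10 µg/mL and fetal calf serum at 2%, so every library came from cells already exposed to a ligand of Egfr. The labels did not give the species of the introduced oncogenes, nor whether control cells carried an empty vector, and no population and arm was sampled more than once.

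ERBB proteins are receptor tyrosine kinases of the cell surface that pair with one another when an EGF family ligand binds. Erbb2 has no known ligand of its own and acts as the preferred partner, Erbb3 binds neuregulins but has an impaired kinase and signals mainly through PI3 kinase when paired, and Egfr and Erbb4 are complete receptors. In the mammary gland Egfr takes part in duct growth and Erbb4 in lactation, and Erbb2 and its neighbour Grb7, an adaptor that docks on activated receptors, are often amplified together in human breast cancer.

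The libraries held 46915316 to 98874101 reads assigned to genes, and levels are given as CPM, a gene's reads relative to library size, after TMM scaling for library composition. Because each population and arm had 1 library, arms were compared across the 3 populations and populations across the 3 arms in a single additive model. The spread that the tests use is what that model leaves over, drawn for each gene towards the trend over all genes. The p-values therefore measure only the spread between these libraries, which the labels do not tie to separate cultures. In bulk samples, fewer cells of a type and less RNA per cell cannot be told apart. Epcam, the gene of the sorted protein EpCAM, ranged over 0.183 to 0.764 CPM across the B libraries, 331 to 610 across L and 252 to 336 across bi. Ly6a, which encodes Sca-1, was lower in L than in B and bi within each arm, but the bi control and bi Her2 libraries, sorted as Sca-1 high, had 18.4 and 15.9 CPM against 57.8 and 19.5 in B. Myc was higher in the MYC library than in its control in each population, at 285 against 114 CPM (B), 207 against 83.3 (L) and 188 against 92.6 (bi). In B, 7 of 12 mammary epithelial markers averaged at least 1 CPM, against 12 for L and 11 for bi. The basal keratins Krt5 and Krt14 stood at 569 CPM or more in every library, while the luminal keratin Krt8 was between 0 and 0.0888 CPM in B. Summed over 8 fibroblast markers, levels were 85.4 to 149 CPM across B, 19.0 to 20.8 across L and 23.9 to 39.3 across bi, led by Pdgfra; all 8 had reads in each population. Immune markers summed to 2.82 to 9.58 CPM, with Tyrobp at 0 in every library, and endothelial markers to 2.47 to 6.39. The fibroblast marker sum was higher in B, as Egfr was, and the part of these cells or markers in the differences against B was not tested.

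By the GENCODE M21 annotation of the mouse genome GRCm38, Egfr lies at chr11:16752203-16918158 on the plus strand, and its longest coding transcript has 28 exons and 10208 bases. Erbb2 lies on the same chromosome at chr11:98412470-98437716, plus strand, with 27 exons and 5012 bases, and Grb7 follows at chr11:98446394-98455373, plus strand, with 15 exons and 2397 bases. Erbb3 is at chr10:128567523-128589652 on the minus strand, with 28 exons and 6016 bases, and Erbb4 at chr1:68032186-69108059, minus strand, with 27 exons and 12037 bases. Read in the direction of transcription, Erbb2, Erbb3, Erbb4 and Grb7 shared no run of 31 bases with the transcripts of any other gene. Egfr shared 96 of its 11270 such runs (0.852%). Runs on the opposite strand were not searched. Mien1, on the opposite strand, overlaps the end of Erbb2 by 9 bases, and the antisense gene Egfros lies within Egfr. The library kit was stranded, but whether the quantification used strand is not given in the sources used here.

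The start-proximal sequence of the receptor genes is shown because their levels, described next, separated by population and arm. RefSeq promoters on GRCm38.p6 were matched for 3 of the 5 members, Egfr, Erbb2 and Erbb4; Erbb3 and Grb7 were not among those printed. The 120 bases before each start are given 5′ to 3′ on the gene's own strand, for Egfr at chr11:16752083-16752202 (plus), for Erbb2 at chr11:98412364-98412483 (plus) and for Erbb4 at chr1:69108060-69108179 (minus). Capitals mark a GC box, the letters GGGCGG or, on the other strand, CCGCCC.
Egfr: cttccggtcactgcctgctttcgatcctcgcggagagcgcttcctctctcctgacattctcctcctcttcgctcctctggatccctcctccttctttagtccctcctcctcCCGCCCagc
Erbb2: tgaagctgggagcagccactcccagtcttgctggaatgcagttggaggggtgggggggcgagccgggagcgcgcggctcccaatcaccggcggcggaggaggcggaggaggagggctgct
Erbb4: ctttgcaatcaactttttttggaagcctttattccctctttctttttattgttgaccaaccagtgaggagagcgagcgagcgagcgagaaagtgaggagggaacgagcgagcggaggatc
Over the 250 bases before the start, on both strands, Egfr had 1 GC box and Erbb2 and Erbb4 had 0, against 32.74% of all 32851 promoters with at least 1. The AP-2 motif GCCNNNGGC, where N is any base, was in 13.73% of all promoters and in 0 of these 3. CpG pairs numbered 16 in Erbb2, 12 in Erbb4 and 11 in Egfr, with a median of 6 over all promoters, and G plus C made up 66%, 54% and 60.8% of the window against a median of 52.4%. These matches describe the letters of the windows only.

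Erbb2, the receptor whose activated form was introduced in the Her2 arm, was higher in the Her2 library than in the control and MYC libraries of every population. Its level was 53.3 CPM in the control, 56.7 in the MYC and 189 in the Her2 library of B. In L the 3 arms had 88.9, 69.0 and 651 CPM, and in bi 82.3, 74.4 and 235. The 3 Her2 libraries lay above all 6 others, with no overlap, and L with Her2 stood apart from the rest. Her2 against control gave a ratio of 3.55 in B (95% counting interval 3.41 to 3.70), 7.32 in L (7.13 to 7.51) and 2.85 in bi (2.78 to 2.93); these intervals, like those below, cover counting error only. Reads of an introduced copy and of the mouse gene are summed in this value wherever they match the mouse transcripts, and they cannot be told apart here. Across populations the log2 fold change for Her2 against control was 2.12 (SE 0.31), higher in 3 of 3 populations, with an adjusted p of 0.0573 by edgeR's quasi-likelihood test with Benjamini-Hochberg adjustment, which misses the threshold of 0.05. Leaving out 1 library at a time, it missed the threshold in 6 of 9 fits, with adjusted p from 0.0534 to 0.205, and passed in 3, at 0.0390 without B with MYC, 0.0245 without L with MYC and 0.0419 without bi with Her2. Against MYC, Erbb2 rose by a log2 fold change of 2.24 (SE 0.31, adjusted p 0.00687 by edgeR), again higher in 3 of 3 populations. MYC against control gave -0.12 (SE 0.29, adjusted p 0.919), with B above its control and L and bi below.

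**Figure D1:**
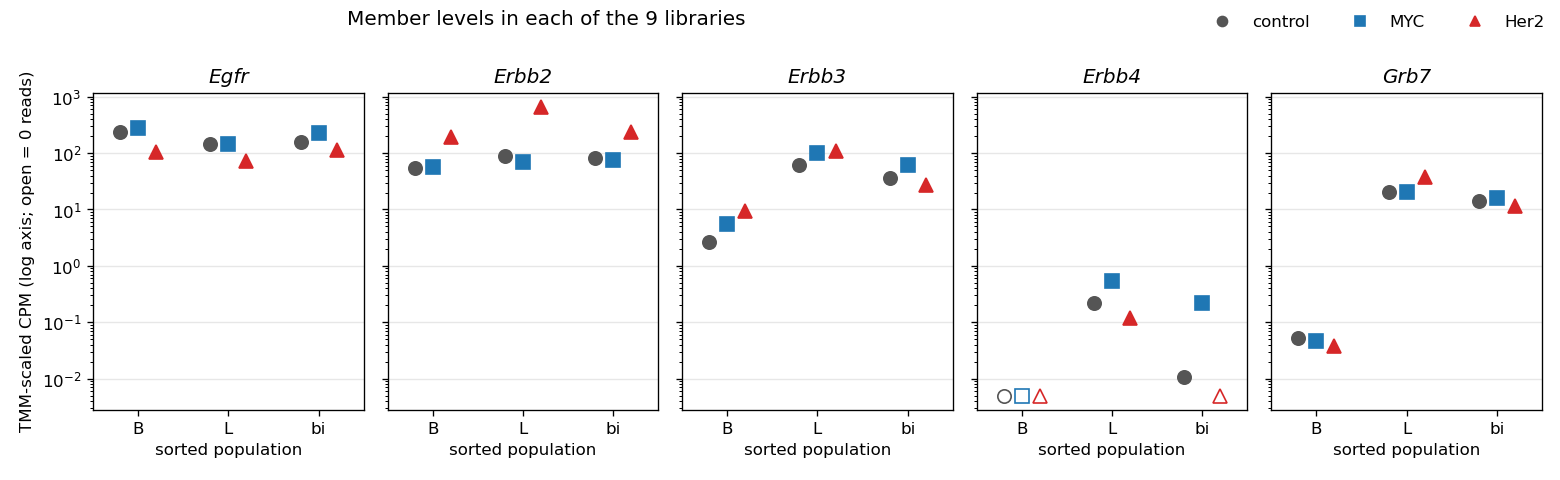
Level of each ERBB receptor and Grb7 in the 9 libraries, as CPM on a log axis, by population (B, L, bi) and arm (control, MYC, Her2); each point is 1 library and an open symbol marks 0 reads. Erbb2 in the 3 Her2 libraries (189, 651 and 235 CPM) lies above its other 6 values, and Grb7 in the 3 B libraries (0.0383 to 0.0533 CPM) lies far below L and bi.

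The deposited effective length, a value in bases for each gene, also separated the arms for Erbb2. It was 1610 to 1649 bases in the 6 control and MYC libraries and 1918 (B), 2037 (L) and 1922 (bi) with Her2. For Egfr it ranged from 1453 to 1687 bases and for Erbb3, with 1 annotated transcript, from 5778 to 5833. In the B control, Erbb2 had 3002 reads, a TPM of 11.9 and 1619 bases, and Erbb3 149 reads, 0.475 and 5816 bases. Reads per TPM and base thus differed between the genes, so this length is not the one behind the TPM. Its differences between arms are therefore not read as differences in transcript length. TPM depends on transcript length and CPM does not. On the deposited TPM scale, Erbb2 with Her2 was 3.35 times its control in B, 6.54 times in L and 3.28 times in bi. The direction was the same on both scales, and lengths were not tested.

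**Figure D2:**
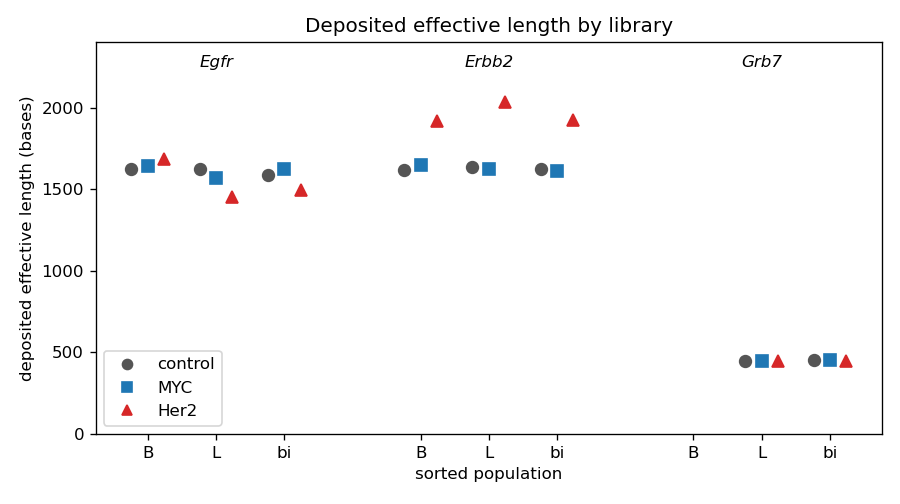
Deposited effective length in bases (y axis) for Egfr, Erbb2 and Grb7 by population and arm, each point 1 library; Grb7 in B, with 2 or 3 reads a library, is left out. Erbb2 stands at 1918 to 2037 bases in the Her2 libraries and at 1610 to 1649 in the other 6.

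Egfr, the receptor for EGF and amphiregulin, was lower in the Her2 library than in the other 2 arms of each population. The levels were 235, 278 and 106 CPM in the control, MYC and Her2 libraries of B. In L they were 144, 143 and 73.7 CPM, and in bi 157, 226 and 115. All 3 Her2 libraries lay below all 6 others. Her2 against control was 0.451 in B (0.437 to 0.465), 0.512 in L (0.495 to 0.530) and 0.732 in bi (0.714 to 0.751) as a ratio of CPM. The fitted log2 fold change was -0.86 (SE 0.19), lower in 3 of 3 populations, with an adjusted p of 0.131 by edgeR with Benjamini-Hochberg adjustment, which does not pass; over this result's other settings, it passed with DESeq2 (0.0239) and with edgeR without the filter on low counts (0.0245), and missed with RLE factors (0.142), with limma on TPM (0.353) and in all 9 fits that left out a library (0.0900 to 0.581). Against MYC, Egfr fell by 1.10 on the log2 scale (SE 0.19, adjusted p 0.0139 by edgeR), lower in 3 of 3 populations. That call was lost without L with Her2 (adjusted p 0.0863) and without bi with MYC (0.101), and with limma on log2(TPM + 1) (-0.92, adjusted p 0.0589). MYC against control gave 0.25 (SE 0.18, adjusted p 0.627).

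Among the 5 members, edgeR called 0 for Her2 against control, where 0.021% of all 23834 genes tested were called, 0.0126% higher and 0.00839% lower. At an unadjusted p under 0.05 there were 1 higher and 1 lower, DESeq2 called 2 and limma on TPM called 0. For Her2 against MYC 1 member was called higher and 1 lower, Erbb2 and Egfr, against 4.57% of all genes in either direction, 2.13% higher and 2.44% lower. For MYC against control edgeR called 0 members (0.365% of all genes, 0.101% higher and 0.264% lower), 2 were higher at an unadjusted p under 0.05, and DESeq2 and limma called 0 each. The comparisons that share the Her2 or control libraries are not independent of each other.

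Erbb3, the neuregulin receptor that couples to PI3 kinase, was set apart by population more than by arm. It had 2.65, 5.58 and 9.51 CPM in the control, MYC and Her2 libraries of B. The same arms had 62.4, 98.9 and 110 CPM in L, and 36.6, 61.6 and 27.2 in bi. Every L and bi library lay above every B library, and within each arm L was above bi. L against B gave a ratio of 23.6 in controls (20.0 to 28.0), 17.7 with MYC (15.6 to 20.2) and 11.6 with Her2 (10.6 to 12.7). The fitted log2 fold change was 4.01 (SE 0.40, adjusted p 0.000114 by edgeR's test with Benjamini-Hochberg adjustment), higher in 3 of 3 arms. Erbb3 also rose in bi against B, by 2.95 (SE 0.39, adjusted p 0.00116), with ratios of 13.8, 11.1 and 2.86 in the control, MYC and Her2 arms. Both calls held in each of the 9 fits that left out a library. The values for bi against L were -1.06 (SE 0.36, adjusted p 0.319), lower in 3 of 3 arms, with the widest gap in the Her2 arm, at a ratio of 0.246.

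Between arms, Erbb3 did not pass a test in the fit of all 9 libraries. MYC against control gave 0.80 (SE 0.35, adjusted p 0.355 by edgeR), higher in 3 of 3 populations, and in the fit without the 3 Her2 libraries it was 0.82 with an adjusted p of 0.0395, which passes. Her2 against control gave 0.79 (SE 0.36, adjusted p 0.586), with ratios of 3.59 in B and 1.77 in L but 0.741 in bi. Her2 against MYC was near 0 (SE 0.37, adjusted p 0.998), with B and L above and bi below. The bi Her2 library was thus the only bi or L library with less Erbb3 than the bi control.

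Erbb4, the receptor that neuregulins also bind and that acts in lactation, was close to the limit of detection. B had 0 reads in each of its 3 libraries. L had 17, 42 and 8 reads in the control, MYC and Her2 libraries (0.221, 0.533 and 0.117 CPM), and bi had 1, 11 and 0. A count of 0 allows up to 3 reads in a library of this depth. The MYC library had the most reads in L and in bi, and every L library had more than any B library. Pooled over arms, L was at least 15.2-fold higher than B (67 against 0 reads, with a floor of 3 reads over the group). Of the 12 reads in bi, 11 were in the MYC library, so that no fold of bi against B is given. In L, MYC against control was 2.41 (1.34 to 4.52) and Her2 against MYC 0.220 (0.0892 to 0.474). In bi, MYC against control rested on 11 against 1 read, a ratio of 20.3 with an interval of 2.95 to 875. Erbb4 passed the filter on low counts only through its L and bi libraries, so that its adjusted p for L against B (0.0115 by edgeR, 0.0705 without B with MYC) is no support for a difference. MYC against control gave a fitted value of 2.19 (SE 0.90, adjusted p 0.335 by edgeR), which ran from 1.13 without bi with MYC to 4.22 without L with MYC.

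Grb7, the adaptor that binds activated Erbb2, was almost absent from B and present in L and bi. The 3 B libraries held 3, 2 and 2 reads (0.0533, 0.0457 and 0.0383 CPM for control, MYC and Her2). L held 1569, 1642 and 2531 reads, or 20.4, 20.8 and 37.1 CPM. The bi libraries held 1352, 824 and 999 reads, or 14.4, 16.2 and 11.4 CPM. No B library overlapped L or bi, and within each arm L was above bi. Pooled over arms, L was 558-fold above B (5742 against 7 reads) and bi 298-fold (3175 against 7). The ratio of the highest to the lowest population mean was 570 on the CPM scale and 177 on the deposited TPM scale. By arm, the L to B ratio was 383 in controls (131 to 1859), 456 with MYC (126 to 3766) and 968 with Her2 (268 to 7994). The wide intervals come with the 2 or 3 reads of each B library. The log2 fold change of L against B was 9.07 (SE 0.43, adjusted p 2.32e-06 by edgeR with Benjamini-Hochberg adjustment), higher in 3 of 3 arms, and that of bi against B was 8.21 (SE 0.43, adjusted p 4.44e-06). Both calls held in all 9 fits that left out a library. Grb7 passed the filter on low counts only through its L and bi libraries. Its adjusted p-values and these fits are therefore no support for a difference, which is described by the read counts alone. Its effective length was 447 to 454 bases in L and bi, and 103 to 697 in B, where each library held 2 or 3 reads. The deposited length in L and bi was 487 to 501 bases. That is below the shortest Grb7 transcript of GENCODE M21, at 582 bases, so the value cannot be read as a length of those transcripts. The reason was not tested.

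Grb7 values between arms did not pass a test. Her2 against control gave 0.27 (SE 0.31, adjusted p 0.963 by edgeR), with a ratio of 1.82 (1.71 to 1.94) in L and 0.794 (0.730 to 0.862) in bi. MYC against control gave 0.09 (SE 0.31, adjusted p 0.95) and Her2 against MYC 0.18 (SE 0.32, adjusted p 0.842). Erbb2, 8677 bases upstream of Grb7, was higher with Her2 in all 3 populations, while Grb7 was higher with Her2 in L, lower in bi and at 3 reads or fewer in B. Between bi and L, Grb7 gave -0.85 (SE 0.27, adjusted p 0.279), lower in 3 of 3 arms.

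**Figure D3:**
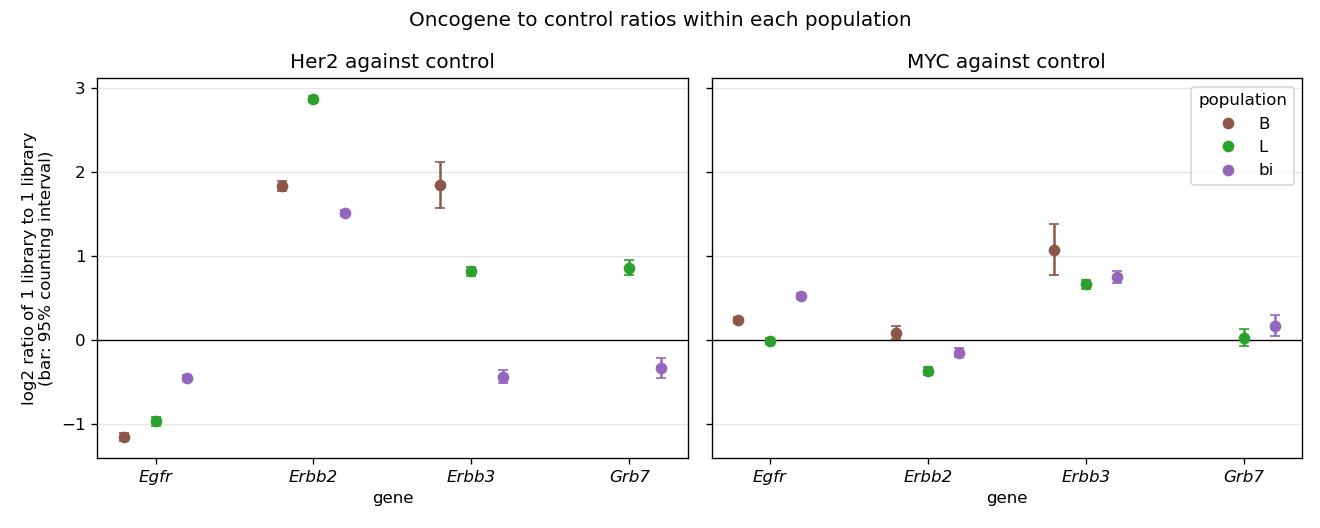
Log2 ratio of CPM between single libraries for Egfr, Erbb2, Erbb3 and Grb7, with Her2 against control (left) and MYC against control (right) by population; bars are 95% counting intervals, and Erbb4 and Grb7 in B are left out for too few reads. In the left panel Erbb2 lies above 0 and Egfr below 0 in all 3 populations, and Erbb3 and Grb7 lie above 0 in L and below 0 in bi.

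Population also separated Erbb2 and Egfr, by smaller factors. Erbb4 and Grb7, which passed the filter on low counts only through L and bi, are left aside here. L against B was called for Erbb2 and Erbb3, both higher, and for Egfr, lower. Of all genes tested, 20.8% were called in either direction, 11.5% higher and 9.26% lower. Erbb2 gave 0.99 (SE 0.30, adjusted p 0.0424 by edgeR), with ratios of 1.67 in controls, 1.22 with MYC and 3.43 with Her2. Without the 3 Her2 libraries the value was 0.52 (adjusted p 0.107), and with RLE factors in place of TMM 0.96 (adjusted p 0.0513). The Erbb2 call was also lost, with adjusted p in parentheses, without B control (0.0898), B with MYC (0.0575), B with Her2 (0.201), L control (0.0526), L with Her2 (0.113) or bi with MYC (0.0548). Leaving out L with Her2 gave 0.51, the smallest value. Egfr fell in L against B, with a log2 fold change of -0.73 (SE 0.18, adjusted p 0.0195 by edgeR), lower in 3 of 3 arms. The Egfr call was lost without B control (0.0655), B with MYC (0.0848), L control (0.0523), L with MYC (0.0874) or L with Her2 (0.0722), and with limma on log2(TPM + 1) (0.0901).

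Against B, the bi population was called for 2 members, both higher, Erbb3 and Grb7. Grb7 passed the filter on low counts only through L and bi, so its call is no support for a difference. Of all genes, 13% were called, 7.88% higher and 5.11% lower. Egfr gave -0.25 (SE 0.18, adjusted p 0.446 by edgeR) and Erbb2 0.45 (SE 0.29, adjusted p 0.378). Between bi and L edgeR called 0 members, against 0.751% of all genes, 0.495% higher and 0.256% lower. At an unadjusted p under 0.05, 1 was higher and 3 were lower, and DESeq2 and limma called 0 each. The order of the population means was B, bi and L from high to low for Egfr, and L, bi and B for the other 4 members. The neighbours bi and L in that order did not pass a test for any member, and neither did bi and B for Egfr, Erbb2 and Erbb4.

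Receptor make-up was compared per kilobase of the longest coding transcript, as the share of the summed CPM per kilobase of the 4 receptors. In B, Egfr made up 67.5% in the control and 69.0% with MYC, Erbb2 31.2% and 28.6%, and Erbb3 1.29% and 2.35%. With Her2, B had 20.9% Egfr, 75.9% Erbb2 and 3.18% Erbb3. In each arm of B, Egfr and Erbb2 thus held most of the sum, with little Erbb3. Erbb2 in the Her2 libraries includes any matching reads of the introduced copy. The Her2 shares and ratios in this comparison are therefore not those of the mouse genes alone. In the L control Egfr, Erbb2 and Erbb3 made up 33.4%, 42.0% and 24.6%, and with MYC 31.6%, 31.1% and 37.2%. L with Her2 had 4.65% Egfr, 83.5% Erbb2 and 11.8% Erbb3. The bi population had 40.6%, 43.3% and 16.1% in the control, 46.8%, 31.4% and 21.7% with MYC, and 18.0%, 74.8% and 7.22% with Her2. Within each arm its shares of Egfr and of Erbb3 lay between those of B and L, and its share of Erbb2 did not. Erbb4 reached at most 0.100%, in L with MYC. The ratio of Erbb2 to Egfr per kilobase was 0.462 in the B control, 1.26 in the L control and 1.07 in the bi control, and 3.64 (B), 18.0 (L) and 4.16 (bi) with Her2. On the deposited TPM scale, Egfr led in all 6 control and MYC libraries and Erbb2 in all 3 Her2 libraries. The order of the receptors thus depended on the length used in the L control, the L with MYC and the bi control.

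**Figure D4:**
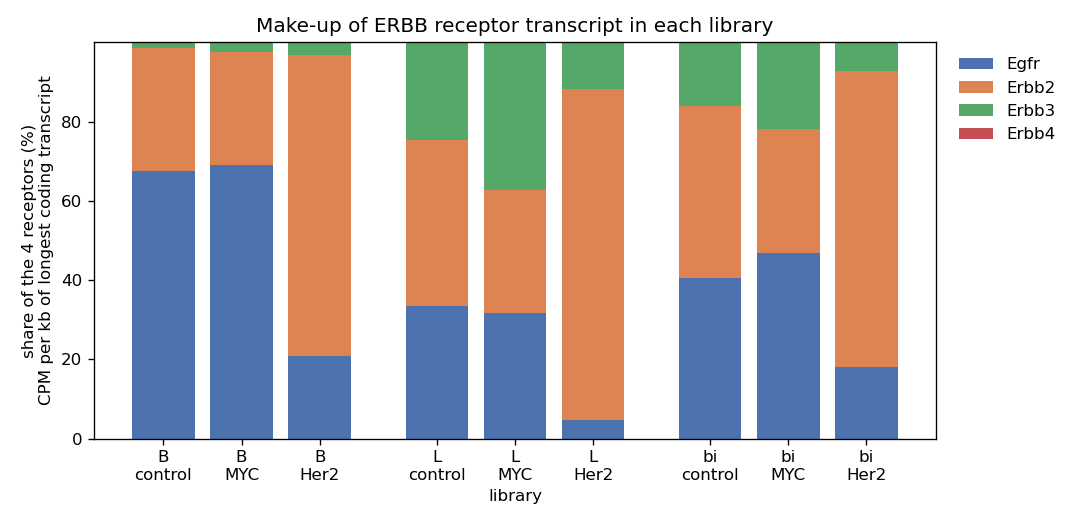
Share of each receptor in the summed CPM per kilobase of Egfr, Erbb2, Erbb3 and Erbb4, as stacked bars from 0 to 100% for the 9 libraries. Erbb3 takes 1.29 to 3.18% in B and 11.8 to 37.2% in L, and Erbb2 takes 74.8 to 83.5% in the Her2 libraries. Erbb2 there includes any matching reads of the introduced copy.

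The genes around Erbb2 and Grb7 on chromosome 11 were followed as a list of 21, of which 14 passed the filter on low counts. For Her2 against control edgeR called 0 of the 14, where 0.021% of all genes tested were called. Of the 14, 1 had an unadjusted p under 0.05, and DESeq2 called 1 and limma on TPM 0. The log2 fold changes ran from -0.57 to 1.77 with a median of -0.04, against -0.01 over all genes tested. The highest was Csf3, at 1.77 (adjusted p 0.132). Pgap3, the next gene upstream of Erbb2, gave -0.40 (SE 0.23, adjusted p 0.728), and Mien1, between Erbb2 and Grb7, gave 0.19 (SE 0.19, adjusted p 0.943). Pnmt, Ikzf3 and Zpbp2 averaged 0.0232, 0.0650 and 0.0865 CPM and were not tested. Erbb2, at 2.12, was thus above each tested neighbour in this comparison. In L against B, 2 of the 14 neighbours rose and 3 fell, where 11.5% of all genes tested were called higher and 9.26% lower. Ppp1r1b, a phosphatase inhibitor, rose by 6.32 and the cytokine gene Csf3 by 5.26, while Fbxl20 gave -1.78, Ormdl3 -1.42 and Thra -0.85. All were past the threshold with edgeR's adjusted p. Ppp1r1b had 0.0229 to 0.107 CPM in B and passed the filter only through L and bi, so its call is no support for a difference. Mien1 gave 0.40 (SE 0.19, adjusted p 0.195) and Pgap3 0.11 (SE 0.23, adjusted p 0.803) in that comparison, between or beside Erbb2 at 0.99 and Grb7 at 9.07.

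**Figure D5:**
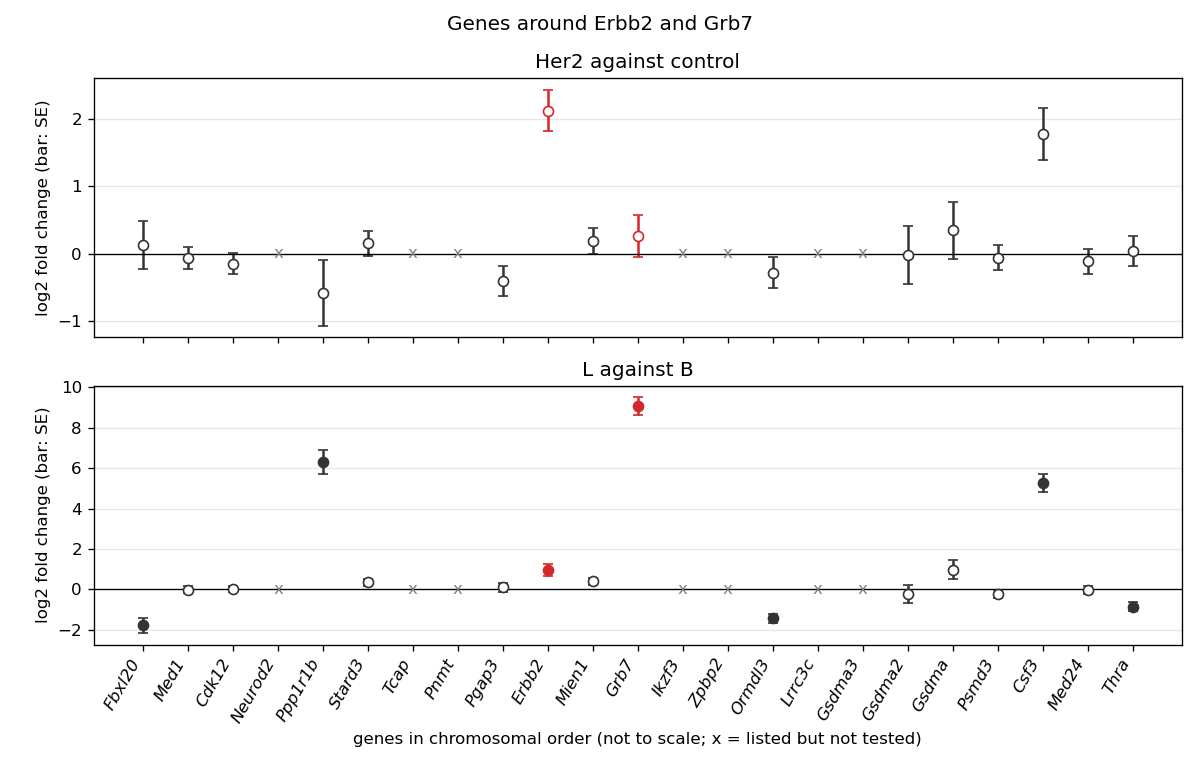
Log2 fold change from the edgeR fit for the genes around Erbb2 and Grb7 in chromosome order, for Her2 against control and L against B; bars are standard errors, filled points passed the threshold, and a cross marks a gene that was not tested. Erbb2 at 2.12 is the highest for Her2 against control, and Grb7 at 9.07 the highest for L against B.

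Other genes of ERBB signalling were read from lists of ligands, adaptors, restraint and turnover genes, Erbb2 partners and AP-2 factors, and together with the chromosome 11 neighbours they made 84 genes, 74 of them tested. For Her2 against control edgeR called 0 of the 74, where 0.021% of all genes tested were called. At an unadjusted p under 0.05, 7 were higher and 6 lower, and DESeq2 called 3 and limma 0. Areg, the gene of the Egfr ligand amphiregulin, gave 2.5 (adjusted p 0.0549), higher in 3 of 3 populations. Her2 against MYC called 6 of the 74 higher and 7 lower, where 2.13% of all genes tested were called higher and 2.44% lower. Of 10 ligand genes tested 5 rose, with a list median of 1.5 against -0.02 over all genes, among them Areg by 5.46 (SE 0.38, adjusted p 0.000288) and the Egfr and Erbb4 ligand Ereg by 3.21 (SE 0.38, adjusted p 0.00486). In the same comparison Egfr itself fell. MYC against control called 2 ligands lower, Areg at -2.97 and Ereg at -2.44, and 0 of the other 64 genes outside the ligand list. Of all genes tested, 0.365% were called in that comparison, 0.101% higher and 0.264% lower. Over the 74 genes, 13 were higher and 11 lower at an unadjusted p under 0.05 there, and DESeq2 called 11 and limma 5.

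Among adaptors and effectors 5 of 22 rose and 1 fell in L against B, where 20.8% of all genes were called, and the list median was -0.05 against 0.04 over all genes, so the list stood near the background. Nck2, an adaptor of receptor tyrosine kinases, rose by 1.87 (SE 0.18, adjusted p 9.44e-05 by edgeR), Pik3cb, a catalytic subunit of PI3 kinase, by 1.71 (SE 0.22, adjusted p 0.000541), and Shc1, an adaptor that links receptors to RAS, gave -0.99 (SE 0.20, adjusted p 0.00580). For bi against B 4 rose and 1 fell, where 13% of all genes were called, with Nck2 at 1.47, Pik3cb at 1.22 and Shc1 at -0.94. With Her2 against MYC 3 of 22 fell, where 2.44% of all genes were called lower, of which Gab1, a docking protein for PI3 kinase, gave -1.37 and Pik3r3, a regulatory subunit of PI3 kinase, -1.19. Of the 18 restraint and turnover genes 1 rose and 3 fell in L against B, near the 20.8% called over all genes. Cblc, a ubiquitin ligase of the Cbl family that acts on activated receptors, rose by 6.87 (SE 0.41, adjusted p 7.10e-06 by edgeR). Its B libraries were close to the floor, at 0.0958 to 0.213 CPM, and it passed the filter on low counts only through L and bi. Its calls against B, in L and in bi, are therefore no support for a difference. Ptpn1, a tyrosine phosphatase, gave -1.14 (SE 0.21, adjusted p 0.00415), with Socs5 at -0.77. For bi against B Cblc rose by 5.90 and Ptpn1 gave -0.72, and for Her2 against MYC Nedd4, a ubiquitin ligase, gave -0.82, the only restraint gene called there. Of the 3 AP-2 factors, which are known to bind ERBB promoters, Tfap2b rose by 1.11 (SE 0.18, adjusted p 0.00223) and Tfap2a gave -0.90 in L against B, Tfap2b rose by 0.89 in bi against B, and Tfap2c gave -1.21 in Her2 against MYC. None of the 6 tested Erbb2 partners and chaperones was called in any of the 6 comparisons by edgeR, with 0 to 3 at an unadjusted p under 0.05, 0 or 1 by DESeq2 and 0 by limma on TPM. Of the Grb7 family, Grb14 was tested and not called, and Grb10 was not tested. Bi against L called 1 gene of the 74, the chromosome 11 neighbour Csf3, at -2.16 (adjusted p 0.0406 by edgeR). Of all genes tested, 0.751% were called there, 0.495% higher and 0.256% lower.

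Genes whose levels followed each member most closely were ranked by Pearson's r of log2 CPM over the 9 libraries, among 10175 genes with a mean of at least 5 CPM. These libraries share populations and arms, so the values are descriptions. For Egfr the leading genes were Sesn1 (r = 0.974), Slc1a3 (0.973) and Oxtr (0.960), and for Erbb2 they were Dgkd (0.977), Ralgapa2 (0.976) and Slc4a11 (0.964). For Erbb3 they were Abraxas2 (0.993), Mbp (0.991) and Galk1 (0.987), and for the sparse Erbb4 they were Myo18a (0.961), Ceacam1 (0.960) and Gk5 (0.958). For Grb7 they were Rab25, Faah and Trp53i11, each at 0.999, and Rab25 had 0.0686 to 0.142 CPM in B against 34.1 to 57.7 in L and 17.3 to 31.4 in bi. Between members, r was 0.937 for Erbb3 and Grb7 and -0.898 for Egfr and Erbb2. With log2(TPM + 1) in place of CPM, 2 of the 3 leading genes were shared for Egfr, 1 each for Erbb2 and Erbb3, and 0 for Erbb4 and Grb7.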

How the data were processed

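The deposited gene tables, 1 per library, give a length, an effective length, TPM and an estimated count of reads per gene. The authors made them with Salmon 0.9.1 on mm10, per the submitters' processing notes; the annotation release is not given in the sources used here. The deposited estimated counts (expected counts) were rounded to whole numbers, and the deposited TPM was used as the authors gave it. Symbols came from GENCODE M21 for 53544 of 54281 genes by versioned identifier and for 563 by the identifier alone, and 174 had none. Libraries held 46915316 to 98874101 reads, and 3 reads were taken as the floor of a count of 0.

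The test was edgeR's quasi-likelihood test (edgeR 4.0.16, R 4.3.3) on counts, after filterByExpr with the arms as groups (10 reads, 15 in total), with TMM factors and an additive model of population and arm with 4 residual degrees of freedom. It was fitted on 23834 genes with Benjamini-Hochberg adjustment over all of them and a threshold of 0.05. The standard error is the log2 fold change divided by the square root of F. Alternatives were RLE factors, no filter on low counts, DESeq2 1.42.0, limma 3.58.1 on log2(TPM + 1), each library left out, and the 3 Her2 libraries left out. The script was tested on simulated data. The library ratios carry exact 95% counting intervals.

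The members, the 7 lists and the tests were chosen with earlier results of these data known. The genes named were the 5 members, genes that check labels and sort, the genes next to Erbb2 and Grb7, up to 2 called genes with the largest rise and fall per list and comparison, and the 3 genes most like each member. Outside that rule, Csf3 and Areg for Her2 against control, Thra, and the single markers were named after their values were seen.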

Additional observations from a re-analysis of the deposited data

Results flagged for a closer look

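Several members had ratios of opposite sign in different populations or arms. Each value below is a log2 ratio of CPM between single libraries, and no difference between these ratios was tested, since each population and arm had 1 library. Erbb3 for Her2 against control was 1.85 in B and 0.82 in L but -0.43 in bi. For Her2 against MYC, Erbb3 was 0.77 in B and 0.16 in L but -1.18 in bi. Grb7 gave 0.86 in L and -0.33 in bi for Her2 against control, and 0.83 in L and -0.51 in bi for Her2 against MYC; B was left out, at 3 reads or fewer. Erbb2 for MYC against control gave 0.088 (B), -0.37 (L) and -0.15 (bi). For bi against L, Erbb2 was 0.11 with MYC, -0.11 in controls and -1.47 with Her2. Egfr for bi against B was 0.12 with Her2, -0.58 in controls and -0.30 with MYC.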

How the results depend on the processing

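Of 30 results on members, 16 kept their direction under every alternative run, and their side of the threshold wherever an adjusted p was given. DESeq2 gave no adjusted p for Erbb4 in MYC against control, Her2 against MYC and bi against L, which are among the 16. Egfr for Her2 against control passed with no filter on low counts (-0.83, adjusted p 0.0245) and with DESeq2 (-0.84, 0.0239). Erbb2 for Her2 against control passed with RLE factors (2.14, 0.0462), with no filter (2.14, 5.74e-06) and with DESeq2 (2.14, 2.70e-08). Erbb3 for bi against L passed with no filter (-1.06, 0.0314), and for MYC against control without the 3 Her2 libraries (0.82, 0.0395). Calls were lost for Egfr with limma on TPM for Her2 against MYC (-0.92, 0.0589) and for L against B (-0.57, 0.0901), for Erbb2 in L against B with RLE factors (0.96, 0.0513) and without the 3 Her2 libraries (0.52, 0.107), and for Erbb4 in L against B with limma (0.058, 0.318). Erbb3 for Her2 against MYC, near 0, turned sign with RLE factors (0.021), no filter (0.044) and DESeq2 (0.029). The causes were not tested. Leaving out each library in turn gave ranges of -1.24 to -0.96 for Egfr in Her2 against MYC, -0.87 to -0.63 for Egfr in L against B, 1.67 to 2.40 for Erbb2 in Her2 against control, -0.31 to 0.15 for Erbb2 in MYC against control, and 0.51 to 1.30 for Erbb2 in L against B. They were -0.52 to 0.49 for Erbb3 in Her2 against MYC, -3.52 to 0.48 for Erbb4 in Her2 against control, 6.26 to 9.46 for Erbb4 in L against B, -0.27 to 0.76 for Grb7 in Her2 against control, -0.27 to 0.38 for Grb7 in MYC against control, and -0.32 to 0.68 for Grb7 in Her2 against MYC. Genes called in the pathway lists numbered 0 for Her2 against control, and 1, 3 and 3 with RLE factors, no filter and DESeq2. For MYC against control they numbered 2, and 10 with no filter, 9 without the Her2 libraries, 11 with DESeq2 and 5 with limma. They were 13 for Her2 against MYC and 21 with no filter, 12 for bi against B and 19 with DESeq2, and 1 for bi against L, with 3, 4 and 0 under no filter, DESeq2 and limma. Leaving out libraries gave 0 to 2, 0 to 7, 4 to 18, 13 to 19, 8 to 15 and 0 to 2 in Her2 against control, MYC against control, Her2 against MYC, L against B, bi against B and bi against L. No paired analysis was possible because the labels give the groups no shared replicate numbers; population, as a term of the additive model, already sets arms against each other within populations. Depth limits Erbb4 throughout and Grb7 in B, where a library held 3 reads or fewer.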
